A study of Mus musculus with 32 samples.

Results

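The genes described here encode the subunits of the receptors for glutamate and for GABA, the main excitatory and inhibitory transmitters of the brain, and their Polycomb marks were read in mouse oocytes. They were chosen by name from the RefSeq annotation of the build GRCm38.p6. Autosomal protein-coding genes whose symbol is Gria, Grid, Grik, Grin1, Grin2, Grin3, Grm or Gabr followed by the subunit's letter or digit were taken, which gave 41 of 20661 autosomal protein-coding genes. The rule reads symbols only, but the group was proposed with earlier results of these data known. The 41 were 3 AMPA, 2 delta, 5 kainate, 7 NMDA and 8 metabotropic glutamate receptor genes and 16 GABA-A receptor genes. Another 4 subunit genes lie on the X chromosome (Gria3, Gabra3, Gabre and Gabrq) and were left out by the rule.

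The study profiled H3K27me3 and H2AK119ub by CUT&Tag, in which an antibody brings a transposase to chromatin that carries the mark, in oocytes taken from the ovary. It comprised 32 samples in 16 groups of 2, and 1 peak list per group was used, 10 for H3K27me3 and 6 for H2AK119ub. Wild-type (WT) oocytes were taken before birth (E18.5), on postnatal day 1 (P1), on day 6 as non-growing oocytes (P6) and on day 7 as growing oocytes (P7), with both marks at each stage. Mutant oocytes carried Ddx4-Cre, a recombinase driven in germ cells, as did their controls. PRC2ctrl (EedF/+) and PRC2cKO (EedF/-) oocytes were profiled for both marks at P6. PRC1ctrl oocytes, which lack Ring1 and carry the genotype Rnf2F/+, and PRC1cKO oocytes were profiled for H3K27me3 at P6 and P7. The genotype label of PRC1cKO reads Ring1-/- and Ring1F/-, so which gene is floxed in it was not settled. Since PRC1ctrl lacks Ring1 as well, a difference between PRC1cKO and PRC1ctrl is on a background without that gene, and a difference between WT and PRC1ctrl includes its loss. H2AK119ub was not analysed here in PRC1ctrl or PRC1cKO.

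As background, Polycomb repressive complex 2 (PRC2), of which Eed is a core subunit, places methyl groups on lysine 27 of histone H3. Polycomb repressive complex 1 (PRC1), whose catalytic subunits are encoded by Ring1 and Rnf2, attaches ubiquitin to histone H2A, which gives H2AK119ub. Both marks sit at genes that are kept silent in a given cell, and neuronal genes are common targets outside the nervous system. Ionotropic glutamate receptors (AMPA, delta, kainate and NMDA) are cation channels of 4 subunits, metabotropic receptors signal through G proteins, and GABA-A receptors are chloride channels. The peaks say where the marks lay and nothing of RNA or protein.

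For each gene the length covered by peaks was measured in a window of the gene's span plus 5 kb to each side, and any overlap, down to 1 bp, counted the gene as marked. The start was the stretch of 1 kb to each side of the annotated start, or of both gene ends for the 14 members without an annotated start in the table used. A member was called higher or lower in a second list when its covered length differed at least 2-fold (with 1 kb added to both) and by at least 5 kb. A group had a single list, so nothing here has a replicate check, an error or a test, and every difference below compares 2 peak lists. The lists held 49615 to 83994 peaks and covered 244.2 to 728.3 Mb, and read depth is unknown from them. As a check of the labels, H3K27me3 peaks touched 7, 4, 2 and 3 of 9 oocyte marker genes in the WT lists at E18.5, P1, P6 and P7. They touched 7 of 7 granulosa, 5 of 5 neuronal and 3 of 3 stromal marker genes in each, and 1, 1, 1 and 2 of 3 blood and endothelial ones. Of all genes, H3K27me3 touched 55.4, 54.3, 56.8 and 60.3% in these lists, and H2AK119ub 79.2, 72.1, 77.9 and 63.4%. H2AK119ub touched 9, 5, 8 and 5 of the 9 oocyte genes. It touched 7 of 7 granulosa and 3 of 3 stromal genes in each list, 5, 5, 5 and 4 of 5 neuronal ones, and 1, 2, 3 and 2 of 3 blood and endothelial ones. A mark at such genes tests no cell type. Control lists of one stage also differed. For H3K27me3 at P6, PRC1ctrl had 0 members higher and 3 lower than WT (2.18% and 2.47% of all genes), PRC2ctrl 0 higher and 1 lower than WT (1.19% and 1.10%), and PRC2ctrl 3 higher and 1 lower than PRC1ctrl (2.76% and 2.22%). At P7, PRC1ctrl had 0 higher and 2 lower than WT (0.465% and 5.80%). For H2AK119ub at P6, PRC2ctrl had 0 higher and 7 lower than WT (0.663% and 15.8%).

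Promoter sequences of 5 members show part of the range of CG content among these genes. The RefSeq promoter table (GRCm38.p6) held 27 of the 41 members. For 9 of these the 200 bases before the start lay in no annotated gene, and of these 9 the 2 with most CG dinucleotides in the 300-base promoter and the 3 with fewest are shown, 5′ to 3′ on the gene's strand, with CG in capitals. In the stretch shown, Grin1 (chr2:25319188-25319387, minus strand) holds 25, Grm8 (chr6:28135147-28135346, minus strand) 28, Gabrr3 (chr16:59407182-59407381, plus strand) 2, Gabrg1 (chr5:70842618-70842817, minus strand) 0 and Gabra6 (chr11:42321073-42321272, minus strand) 2. In the whole 300-base promoter the counts are 33, 33, 3, 3 and 2. The highest counts among the members, 50 at Grik3 and 42 at Grik4, are at promoters inside an annotated gene, which are not shown.
Grin1: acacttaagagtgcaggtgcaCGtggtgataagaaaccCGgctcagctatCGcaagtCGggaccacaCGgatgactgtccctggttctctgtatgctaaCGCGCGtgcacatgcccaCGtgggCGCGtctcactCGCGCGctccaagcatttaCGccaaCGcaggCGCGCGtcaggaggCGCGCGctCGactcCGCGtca
Grm8: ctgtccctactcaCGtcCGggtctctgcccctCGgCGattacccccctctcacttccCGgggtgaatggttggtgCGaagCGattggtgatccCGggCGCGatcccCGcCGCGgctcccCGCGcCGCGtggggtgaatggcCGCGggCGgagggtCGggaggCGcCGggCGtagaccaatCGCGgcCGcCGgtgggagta
Gabrr3: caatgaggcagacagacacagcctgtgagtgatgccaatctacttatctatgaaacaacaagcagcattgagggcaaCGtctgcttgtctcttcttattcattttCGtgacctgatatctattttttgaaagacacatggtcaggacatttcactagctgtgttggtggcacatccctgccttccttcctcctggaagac
Gabrg1: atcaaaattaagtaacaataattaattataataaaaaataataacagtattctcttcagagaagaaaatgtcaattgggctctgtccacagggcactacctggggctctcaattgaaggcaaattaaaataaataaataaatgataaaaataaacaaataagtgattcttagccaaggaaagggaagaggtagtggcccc
Gabra6: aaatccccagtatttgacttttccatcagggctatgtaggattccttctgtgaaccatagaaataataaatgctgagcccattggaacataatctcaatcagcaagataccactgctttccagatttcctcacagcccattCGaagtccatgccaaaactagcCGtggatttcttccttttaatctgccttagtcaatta
Grin1 and Grm8, alike in the count over 300 bases, stood far apart in H3K27me3, with means over the 10 lists of 94.8% and 14.7% of the window covered. Of the CG-poor promoters shown, Gabrr3 had a mean of 30.5%, Gabra6 of 11.1% and Gabrg1 of 10.4%. Promoters as poor in CG but not shown went up to far higher means. These were Gabrr2 (2 CG, 58.0%), Grin3b (3 CG, 38.4%), Grm6 (4 CG, 96.0%) and Gabrp (4 CG, 21.5%). Over the 27 members the CG count and the mean H3K27me3 coverage had a Pearson r of 0.27 and a Spearman rho of 0.13. Over 16456 genes with a promoter in the table the values were -0.18 and -0.20. These are descriptions across genes, which are not independent. The log10 of the window length and the mean H3K27me3 coverage had r = -0.52 and rho = -0.48 over the 41 members, and r = -0.12 and rho = -0.04 over all 20661 genes, so that the most covered receptor genes were short ones.

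Nearly every receptor gene carried both marks. H3K27me3 touched 40, 40, 41 and 40 of the 41 members in the WT lists from E18.5 to P7, where it marked 55.4, 54.3, 56.8 and 60.3% of all genes. It touched 41 and 39 in PRC1ctrl at P6 and P7 (55.1 and 54.7%), 40 and 41 in PRC1cKO (55.2 and 55.0%), 40 in PRC2ctrl (55.3%) and 38 in PRC2cKO (48.3%). Long genes are marked more often, and of those with a window over 200 kb, a class that holds 19 of the 41 members, 83.1 to 89.4% were. H2AK119ub touched 39, 39, 38 and 39 members in the WT lists (79.2, 72.1, 77.9 and 63.4% of all genes) and 38 in both PRC2ctrl and PRC2cKO (72.0 and 71.1%), and 94.1 to 97.5% of the long genes.

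The starts stood further from the background than the windows. H3K27me3 lay at the start of 36, 37, 40 and 38 members in the WT lists, against 34.8, 35.2, 38.0 and 41.8% of all genes. In PRC1ctrl these were 41 and 35 members at P6 and P7 (37.0 and 36.0%), in PRC1cKO 38 and 41 (34.9 and 34.3%), in PRC2ctrl 39 (37.4%) and in PRC2cKO 36 (30.9%). Among genes with a window over 200 kb, 53.2 to 62.9% had H3K27me3 at the start in the 10 lists. H2AK119ub lay at the start of 36, 37, 38 and 34 members in the WT lists (65.0, 53.5, 57.8 and 41.8% of all genes), of 33 in PRC2ctrl (49.9%) and of 35 in PRC2cKO (48.0%), and of 57.1 to 79.5% of the long genes.

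The covered length told the marks apart. H3K27me3 covered 22.9, 22.3, 29.8 and 24.4% of the median member's window in the WT lists from E18.5 to P7, and the median of all genes was 4.10, 3.55, 5.60 and 8.58%. For H2AK119ub the order was the opposite, with 15.5, 22.7, 25.3 and 5.51% for the median member and 38.1, 24.4, 37.5 and 5.93% for the median gene. More than 50% of the window lay under H3K27me3 for 9, 10, 11 and 14 members at the 4 stages, against 19.6, 20.8, 22.5 and 27.9% of all genes. Of the genes with a window over 200 kb, 7.61, 8.89, 9.58 and 17.7% were covered that far.

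**Figure D1:**
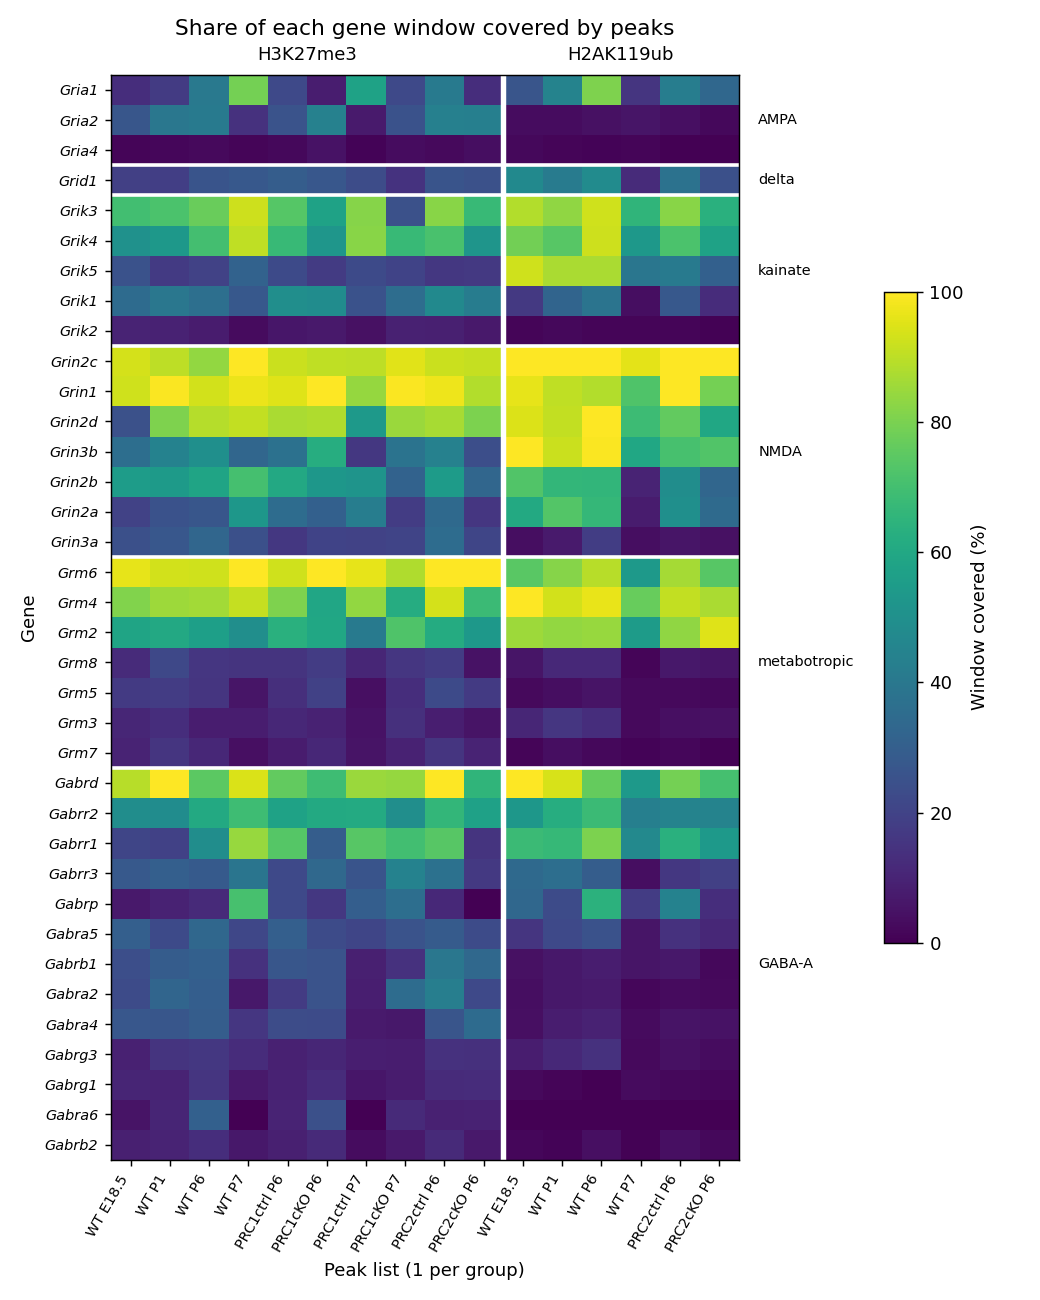
Share of each gene's window (gene span plus 5 kb to each side) covered by peaks, in %, for 36 of the 41 receptor genes (rows, grouped by receptor family and ordered by their mean) in the 16 peak lists (columns, 10 of H3K27me3 left of the white line and 6 of H2AK119ub right of it). Grin1, Grin2c, Grm6 and Gabrd are bright in most columns, Gria4, Grik2 and Gabrb2 are dark throughout, and the H2AK119ub column of WT P7 is darker than its neighbours.

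The most and the least covered genes each came from several families. Over all 16 lists the mean covered share was highest at Grin2c (94.6%), Grin1 (92.2%), Grm6 (88.7%), Grm4 (83.4%), Gabrd (82.0%) and Grin2d (78.5%). Among the lowest were Gria4 (1.85%), Grik2 (5.06%) and Gabrb2 (6.38%). The 6 highest have windows of 23.1 to 101 kb.

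Among the AMPA genes, Gria1 and Gria2 parted between P6 and P7. These subunits form the channels of fast excitatory transmission, and Gria2 limits their calcium flow. At Gria1 (chromosome 11, 57011571 to 57330244), H3K27me3 covered 13.3, 17.5, 40.5 and 79.1% of the window in the WT lists from E18.5 to P7. At Gria2 (chromosome 3, 80681450 to 80804227) it covered 26.7, 39.8, 40.7 and 14.2%. Level at P6, they were far apart at P7. H2AK119ub covered 26.3, 44.7, 80.8 and 15.6% of the Gria1 window at the same stages, but 3.44, 3.26, 4.32 and 5.70% of that of Gria2, where the P6 list had a single peak of 5.74 kb that covered the whole start. Gria4 (chromosome 9, 4417893 to 4796234) stayed between 0.886 and 5.04% in the 10 H3K27me3 lists and had no H2AK119ub peak in the PRC2ctrl and PRC2cKO lists.

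Delta receptors bind cerebellins at synapses. Grid1 (chromosome 14, 34820003 to 35583387) had H3K27me3 over 14.6 to 29.6% of its window in the 10 lists and H2AK119ub over 12.4 to 48.4% in the 6 lists.

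Kainate receptor genes ranged from nearly bare to nearly full. Grik3 (chromosome 4, 125490259 to 125714173) was covered by H3K27me3 over 69.7, 71.7, 77.3 and 92.3% of its 234 kb window in the WT lists from E18.5 to P7, and Grik4 (chromosome 9, 42518182 to 42945000), which encodes a high-affinity subunit, over 50.7, 53.4, 70.1 and 90.3% of 437 kb. In each case the share grew from stage to stage. Their peaks were among the widest, with 1 peak of 122 kb at Grik3 in the WT P7 list. Grik1 had 34.9, 39.5, 36.5 and 27.5%, and Grik2 had 9.91, 9.75, 7.63 and 2.97%. At Grik5, the other high-affinity subunit gene, the marks diverged up to P6. H3K27me3 covered 25.0, 16.9, 19.7 and 31.4% in the WT lists, while H2AK119ub covered 92.7, 87.1, 87.2 and 39.3%. At Grik1 they stood apart the other way at P7, with 27.5% under H3K27me3 and 3.64% under H2AK119ub.

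Of the NMDA receptor genes, Grin1 (chromosome 2, 25291177 to 25319187), the subunit that every NMDA receptor needs, lay under H3K27me3 over 84.1 to 100% of its window in the 10 lists. Its highest peaks reached a maximum signal of 85, 97, 80 and 46 in the WT lists from E18.5 to P7, above 99.6, 99.2, 99.2 and 99.1% of all peaks of the same list. Grin2c (chromosome 11, 115249169 to 115267297), one of the glutamate-binding subunits, was covered over 83.6 to 100% and held a single H3K27me3 peak in each of the 10 lists. Grin2d (chromosome 7, 45831883 to 45871194) gained its H3K27me3 after birth, with 25.0% of the window at E18.5, no peak at the start, and then 80.5, 88.8 and 90.8%. Its H2AK119ub was already at 94.9% at E18.5. The larger Grin2a and Grin2b windows were covered over 19.6, 25.3, 26.7 and 52.8% and over 55.3, 54.4, 58.2 and 70.4%. Grin3b, for a glycine-binding subunit, had H2AK119ub over 59.7 to 100% in the 6 lists and H3K27me3 over 16.1 to 62.3% in the 10.

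Coverage of the metabotropic receptor genes did not follow their signalling groups. Grm6 (chromosome 11, 50850369 to 50866208), the receptor of retinal ON bipolar cells, had H3K27me3 over 88.3 to 100% in the 10 lists, Grm4 (chromosome 17, 27422387 to 27513826) over 59.2 to 93.5%, and Grm2 (chromosome 9, 106644534 to 106656109) over 40.7 to 72.5%. Means were lower at Grm3 (9.25%), Grm7 (9.90%), Grm5 (14.5%) and Grm8 (14.7%). Grm7 and Grm8 belong with Grm4 and Grm6 to the group III receptors, and Grm3 with Grm2 to group II. The widest peak at any member in any of the 16 lists was an H2AK119ub peak of 255 kb that held the whole Grm4 window in WT oocytes at E18.5.

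GABA-A receptor genes spanned the same range. Gabrd (chromosome 4, 155384979 to 155398098), for the delta subunit of receptors outside the synapse, had H3K27me3 over 65.5 to 100% in the 10 lists. Gabrr2 and Gabrr1, for rho subunits known from the retina, had means of 58.0 and 51.0%, and Gabrr3, the third rho gene, of 30.5%. Gabrp, for the pi subunit, which is known mostly outside the brain, had 6.92, 9.71, 11.8 and 70.8% in the WT lists. Among other alpha and beta subunit genes, the mean was 25.8% at Gabra5, 24.7% at Gabrb1 and 8.81% at Gabrb2. Gabra6 (chromosome 11, 42306437 to 42321072), the alpha subunit of cerebellar granule cells, had no H2AK119ub peak in any of the 6 lists.

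Within a stage, receptor genes with more H3K27me3 tended to have more H2AK119ub. Both marks touched 38, 38, 38 and 39 of 41 members in the WT lists from E18.5 to P7, 37 in PRC2ctrl and 36 in PRC2cKO, where 48.9, 47.5, 51.3, 51.6, 48.4 and 41.0% of all genes in turn had both. Across the 41 genes the covered shares of the 2 marks had a Pearson r of 0.77, 0.80, 0.80 and 0.84 at the 4 WT stages, and across all 20661 genes of 0.49, 0.59, 0.63 and 0.78. At WT P6, 6 members had at least 10% of the window under H3K27me3 with less than 5% under H2AK119ub, among them Gabra6, Gabrb2, Gabrg1, Gria2 and Grm7. The same held for 4.34% of all genes. The marks also stood apart the other way, as at Grik5 (19.7% under H3K27me3 and 87.2% under H2AK119ub) and Grin3b (49.8 and 99.3%), named after their values were seen. Members' highest peaks were high ones within their list, with a median percentile of the maximum signal of 92.4 to 97.7 over the 16 lists, against 80.7 to 89.6 for all marked genes. A long gene has more peaks to draw its highest from.

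Around birth few receptor genes were called. From E18.5 to P1, Grin2d was called higher in H3K27me3 (12.3 to 39.7 kb, 3.06-fold) and 1 member lower, where 1.25% of all genes were higher and 0.953% lower. Among the largest differences in length that were not called were those at Grm8 (108 and 187 kb), Grm7 (91.9 and 142 kb), Gabrg3 (62.6 and 101 kb) and Gabrb1 (120 and 145 kb). The mark reached the start of Grin2d, which 3.10% of all genes also gained, and no member's start lost it. In H2AK119ub, Grm7 (13.1 to 34.9 kb) and Grm8 (47.8 to 100 kb) were called higher and no member lower, while 1.72% of all genes were called higher and 13.1% lower. The covered lengths of Grik1 (68.0 and 131 kb), Gria1 (86.4 and 147 kb), Grin2a (266 and 321 kb) and Grid1 (366 and 320 kb) were among those that differed most without a call. The start of Gabrr1 gained H2AK119ub, as did 2.34% of all starts. With lists trimmed to equal numbers of peaks, H3K27me3 had 2 members higher and 0 lower. Trimmed to equal covered length, H2AK119ub had 6 higher and 0 lower.

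From P1 to P6, H3K27me3 spread at 4 members and receded at none by the rule. Of these, Gria1 went from 57.5 to 133 kb, Gabrr1 from 8.01 to 20.1 kb and Gabra6 from 2.51 to 7.57 kb, where 4.49% of all genes were called higher and 2.27% lower. For windows over 200 kb the shares were 6.32% and 7.21%. Not called were Grik4 (233 and 306 kb), Grid1 (143 and 200 kb), Grm8 (187 and 139 kb) and Grm7 (142 and 104 kb), among others. The starts of 3 members, Gabrr1 and Grik5 among them, gained the mark, as did 5.82% of all starts, and 1 window did, as did 6.45% of all windows. H2AK119ub was called higher at 4 members, among them Gabrp (8.71 to 24.5 kb), Gabrb2 (2.15 to 9.52 kb) and Grin3a (14.2 to 35.1 kb), and lower at none, with 13.6% of all genes higher and 2.20% lower. Larger differences in kb were at genes already covered and were not called, such as Gria1 (147 and 266 kb), Grik4 (323 and 403 kb), Grid1 (320 and 375 kb), Grin2a (321 and 292 kb) and Grik1 (131 and 155 kb). The window of Gabrg1 lost H2AK119ub at this step, as did 3.51% of all windows, and the start of Grm5 gained it, as did 8.66% of all starts. Trimmed to equal covered length, the H2AK119ub split was 2 higher and 3 lower.

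Between the non-growing oocytes of P6 and the growing ones of P7, H3K27me3 contracted at 10 receptor genes and expanded at 1 by the rule. Called lower were, among others, Gabrb1 (153 to 70.7 kb), Grm7 (104 to 37.9 kb), Grm5 (86.5 to 31.4 kb), Gria2 (54.1 to 18.8 kb), Gabra2 (43.9 to 9.63 kb), Grik2 (53.9 to 21.0 kb), Gabrg1 (15.8 to 6.92 kb) and Gabra6 (7.57 kb to none). By family the 10 were 6 GABA-A genes, 2 metabotropic genes, 1 AMPA and 1 kainate gene. The background was 4.71% of all genes lower and 10.7% higher, and 17.4% and 20.4% of those with a window over 200 kb. Only Gabrp was called higher, from 4.49 to 27.1 kb (5.11-fold). Gria1 (133 to 260 kb, 1.95-fold) and Grin2a (117 to 231 kb, 1.97-fold) came close to the rule, and Grik4 (306 and 394 kb) and Grin2b (274 and 331 kb) had the next largest differences. The window of Gabra6 lost the mark, as did 6.57% of all windows, and 2 starts, that of Gabra6 among them, lost it, as did 4.87% of all starts. With lists trimmed to equal numbers of peaks the split was 3 higher and 6 lower, and at equal covered length 1 higher and 14 lower.

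Among the members the direction of the difference went with how much of the gene H2AK119ub covered at P6. Of the 20 members with H2AK119ub over less than 20% of the window in the WT P6 list, 18 had less H3K27me3 at P7, with a median difference of -7.45 percentage points, and the 10 called lower were all among them. Of the 21 with at least 20%, 17 had more, with a median of 10.4 points. The exceptions among these were Grik1, Gabra5, Grm2 and Grin3b, chosen for mention after their values were seen, as was the 20% border. Over the 41 members the difference and the H2AK119ub share had r = 0.59 and rho = 0.63, and over all 20661 genes 0.26 and 0.29. Among the 1012 genes with a window over 200 kb the values were 0.45 and 0.46, and 53.5% of them below the border against 27.7% above it had less H3K27me3. Over all genes these shares were 21.2% and 22.9%, since many genes had no difference. Of all genes below the border 1688 had less and 1623 more, and of those above it 2915 and 7038. So the relation was also present among long genes in general, and over all genes it lay in the gains above the border. All points share the same lists, and neighbouring members can share peaks.

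In PRC1ctrl oocytes, whose lists are separate from those of WT, H3K27me3 also covered less of the members with little H2AK119ub in WT P6. The relation was weaker. The H2AK119ub share is that of the WT P6 list throughout, since this mark was not analysed in PRC1ctrl. From P6 to P7, 19 of the 20 members with little H2AK119ub had less H3K27me3, and of the other 21, 12 had more and 9 less. Among genes with a window over 200 kb, 65.1% of those below the border and 43.3% of those above it had less. Over all genes the order of these shares was reversed, with 22.8% below the border and 37.8% above it, where many genes had no difference. Of all genes below the border 1811 had less and 1131 more, and of those above it 4801 and 4890. The difference and the H2AK119ub share had r = 0.17 and rho = 0.22 over the members, 0.28 and 0.26 over genes with a window over 200 kb, and 0.04 and 0.04 over all genes. Of 7 members called lower, 6 were Gabrb1 (135 to 44.2 kb), Grm5 (76.3 to 23.0 kb), Gria2 (34.2 to 9.46 kb), Gabra4 (22.9 to 7.27 kb), Grm3 (27.6 to 12.6 kb) and Gabrb2 (20.0 to 7.01 kb), and Gria1 was called higher (72.6 to 190 kb). All genes were called lower in 8.05% and higher in 6.81%, and those with a window over 200 kb in 25.6% and 12.8%. Of the 10 members lower in WT, all 10 had less coverage in PRC1ctrl and 4 met the rule there, Gria2, Gabrb1 and Grm5 among them. The direction was the same in both genotypes for 33 of 41 members. No like share is set beside it for all genes, since many of them had no difference in one genotype or both. In WT 22 members had less coverage and 19 more, and in PRC1ctrl 28 and 13, so some agreement was to be had in any case. Without a background the count of members with the same direction is not read as particular to the receptor genes. The starts of 6 members, among them Grin3b, Gabra6, Gabrr1 and Grm5, lost the mark, as did 7.10% of all starts, and 2 windows, that of Gabra6 among them, as did 8.65% of all windows. The largest differences without a call were at Grik1 (200 and 102 kb), Grik4 (295 and 359 kb) and Grid1 (229 and 180 kb). At equal covered length the split was 2 higher and 5 lower.

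**Figure D2:**
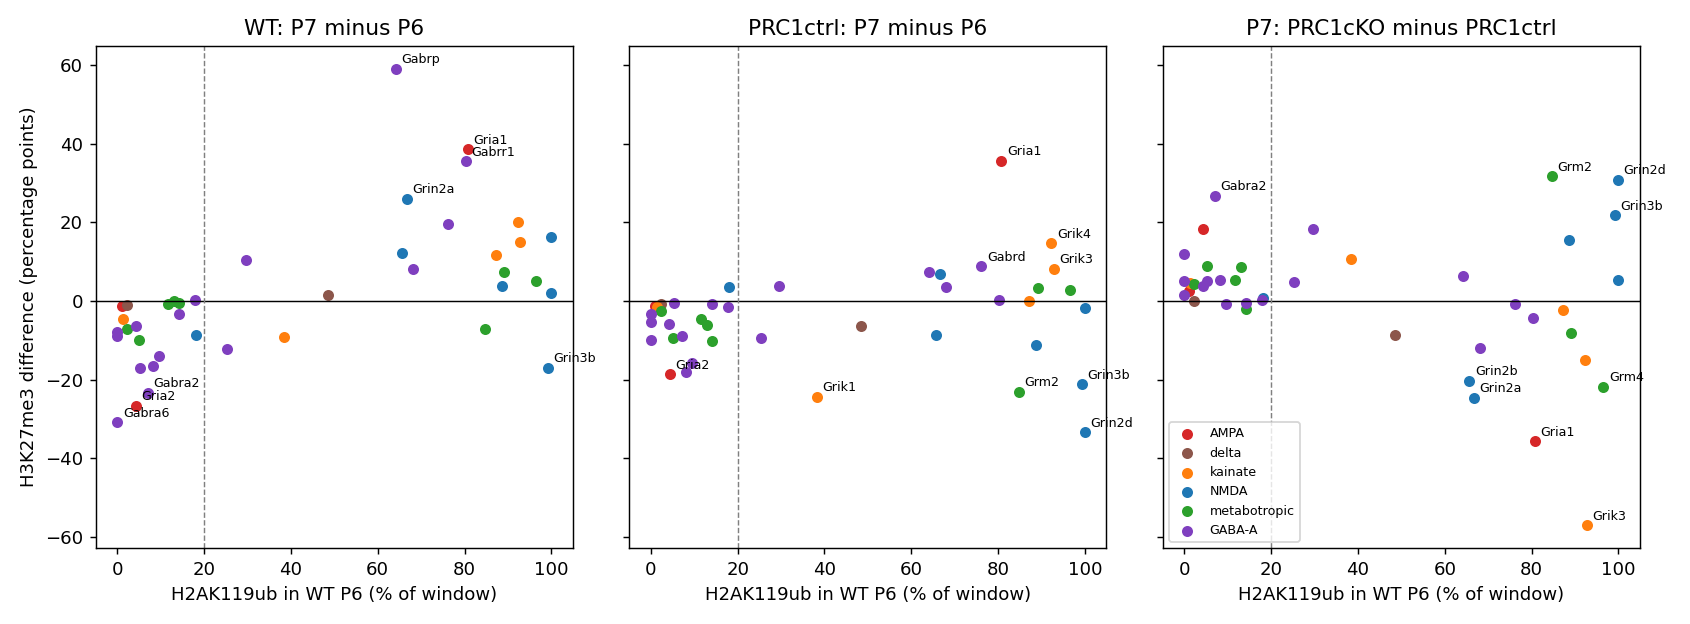
Difference in the share of the window covered by H3K27me3, in percentage points, against the share covered by H2AK119ub in WT P6 oocytes, in %, for the 41 receptor genes coloured by family, with the 20% border dashed. Left of the border 18 of 20 genes lie below 0 in WT and 19 of 20 in PRC1ctrl (P7 minus P6), while 16 of 20 lie above 0 in the difference PRC1cKO minus PRC1ctrl at P7.

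H2AK119ub covered less of 36 of the 41 members at P7 than at P6 in WT and more of 3. Covered length was lower by the rule at 19 members and higher at none, where 41.9% of all genes and 77.0% of those over 200 kb were lower and 0.179% of all genes higher. In length the largest differences were at Grid1 (375 to 95.8 kb), Grin2b (309 to 46.8 kb), Grin2a (292 to 33.9 kb), Gria1 (266 to 51.2 kb), Grik1 (155 to 14.7 kb) and, not called, Grik4 (403 and 232 kb). Also called lower were, among others, Grik5, Grin3a, Grm3, Grm7, Grm8, Gabra2, Gabra4, Gabra5, Gabrb2, Gabrg3, Gabrp and Gabrr3, of which Grm8 went from 101 to 10.6 kb. At Gria1, Grin2a and Grin2b, H3K27me3 covered more length at P7 than at P6. The starts of Gabrr3, Gabrr1, Grm8 and Grm5 lost H2AK119ub, as did 18.9% of all starts, and the Gabrg1 window gained it, as did 2.61% of all windows. The deposited list for P7 covers 244.2 Mb and that for P6 728.3 Mb, and with both trimmed to equal covered length the split became 5 members higher and 1 lower. A difference in the lists' extent cannot be told apart from a difference at these genes.

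The PRC1cKO comparison asks how H3K27me3 lies when the PRC1 genes are targeted in germ cells. At P6, Gria4 was called higher (7.81 to 19.6 kb) and 3 members lower, among them Gria1 (72.6 to 26.8 kb) and Gabrr1 (30.2 to 12.1 kb), with 2.13% of all genes higher and 3.84% lower. The mark was lost at 3 starts, those of Gabrp and Grik5 among them, as at 5.12% of all starts, and from 1 window, as from 4.56% of all windows. The largest differences without a call were at Grik4 (295 and 230 kb), Grik3 (172 and 135 kb), Grin2b (284 and 248 kb), Grm7 (71.0 and 105 kb) and Grm5 (76.3 and 109 kb). Of the 20 members with little H2AK119ub in the WT P6 list, 15 had more H3K27me3, and of the 21 others 15 had less. These are 25.0% and 71.4% with less, and among all genes with a window over 200 kb the shares were 24.8% and 73.3%, close to those of the members.

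At P7 the same contrast reached 11 members. Of 8 called higher in PRC1cKO, 7 were Grm5 (23.0 to 72.5 kb), Gabra2 (12.6 to 52.2 kb), Grik2 (31.6 to 64.6 kb), Gria2 (9.46 to 33.7 kb), Grm3 (12.6 to 34.3 kb), Gria4 (3.44 to 13.1 kb) and Gabrb2 (7.01 to 15.5 kb). Called lower were Grik3 (191 to 58.0 kb), Gria1 (190 to 72.8 kb) and Grin2a (186 to 78.2 kb). The background was 4.42% of all genes higher and 8.81% lower, and 15.5% and 24.1% of those with a window over 200 kb. All 8 higher members had less than 20% of the window under H2AK119ub in WT P6, and the 3 lower ones more. Among genes with a window over 200 kb, 30.7% of those below the border and 70.2% of those above it had less H3K27me3, and of those called lower 55 were below it and 189 above it. Over all genes, 7953 lay below the border and 12708 above it. Of these, 373 and 541 were called higher, and 180 and 1641 lower. The difference and the H2AK119ub share had r = -0.28 over the members, -0.58 over the long genes and -0.21 over all genes. Grin2b (243 and 148 kb), Grid1 (180 and 113 kb) and Grik4 (359 and 294 kb) had large differences without a call. The starts of 6 members, among them Grin3b, Gabra6, Gabrr1 and Grm5, were marked in PRC1cKO and not in PRC1ctrl, as were 5.62% of all starts, and so were 2 windows, that of Gabra6 among them, as were 8.25% of all windows. These are the genes that lacked the mark there in PRC1ctrl at P7 and not at P6, and since both comparisons use the PRC1ctrl P7 list they are not independent. The same holds for the covered lengths, where a low value in that list lowers one difference and raises the other.

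Side by side, Gria2 had 34.2 kb in PRC1ctrl and 58.4 kb in PRC1cKO at P6, and 9.46 and 33.7 kb at P7. Grm5 had 76.3 and 109 kb at P6, and 23.0 and 72.5 kb at P7. PRC1cKO was above PRC1ctrl at both ages in these 2 genes, and both genotypes had less at P7. At Grik3 the change was in the gene body: more than 10 kb from the start, 81.1% of the window was covered in PRC1ctrl and 19.5% in PRC1cKO at P7, while within 10 kb of it 92.2% and 99.8% were. At Gabra2 the order was the other way, with 6.75 and 28.1% of the body and 24.5 and 100% near the start. The WT P7 list differed from the PRC1ctrl P7 list too, with Gabrp (27.1 against 11.3 kb) and Gabra4 (15.5 against 7.27 kb) lower in PRC1ctrl.

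**Figure D3:**
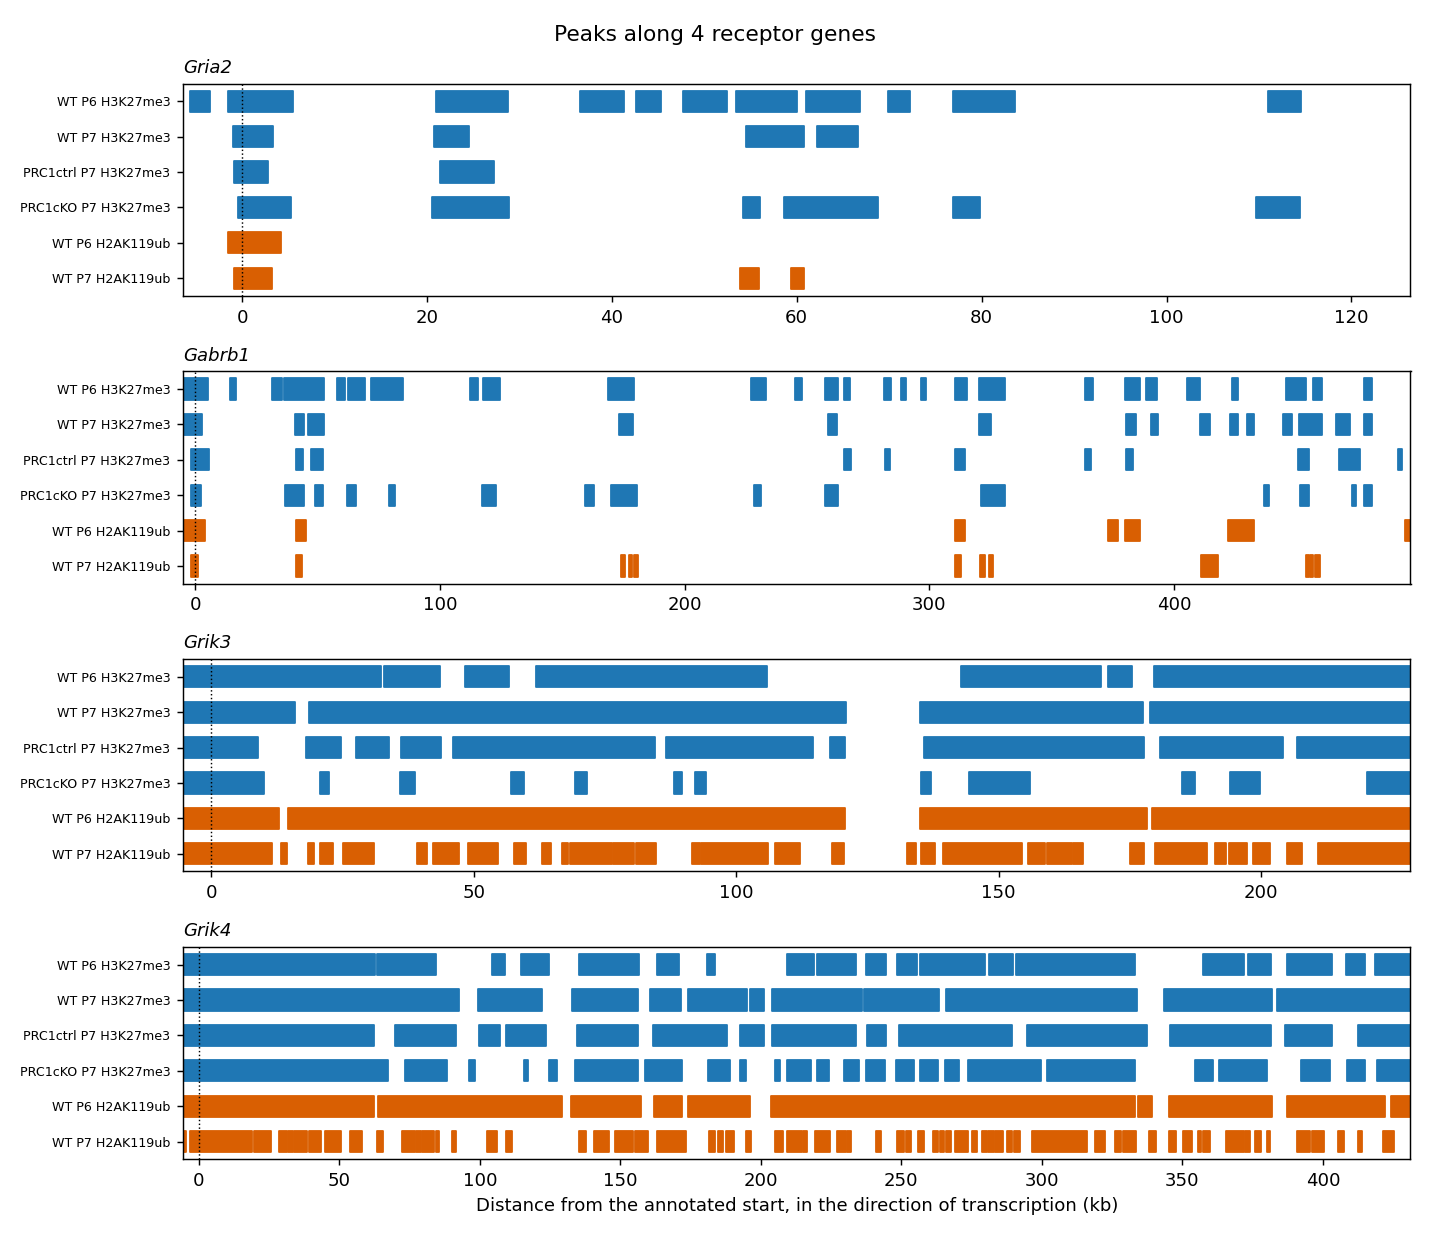
Peaks of H3K27me3 (blue) and H2AK119ub (orange) along Gria2, Gabrb1, Grik3 and Grik4, by distance in kb from the annotated start (dotted line) in the direction of transcription, over the gene's span plus 5 kb to each side, in 6 lists. Gria2 and Gabrb1 lose scattered H3K27me3 peaks between WT P6 and P7 and have little of their length under H2AK119ub, while at Grik3 the blocks of the PRC1ctrl P7 list are broken up in PRC1cKO except at the start.

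Within PRC1cKO, from P6 to P7, Gria1 (26.8 to 72.8 kb), Gabrr1 (12.1 to 28.6 kb) and Gabrp (6.19 to 13.8 kb) were called higher and Grik3 (135 to 58.0 kb) and Gabra4 (22.7 to 6.43 kb) lower, with 3.28% of all genes higher and 6.96% lower. For windows over 200 kb these shares were 5.04% and 27.6%. Grin2b (248 and 148 kb), Grid1 (211 and 113 kb), Grik4 (230 and 294 kb), Gabrb1 (129 and 71.1 kb) and Grin2a (134 and 78.2 kb) differed most without a call. The starts of 3 members, Gabrp and Grik5 among them, gained the mark, as did 5.19% of all starts, and 1 window, as did 6.59% of all windows. This split turned with the processing and was 2 higher and 5 lower at equal numbers of peaks.

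In PRC2cKO oocytes H3K27me3 remained at most receptor genes over a smaller length. Marked members numbered 40 in PRC2ctrl and 38 in PRC2cKO, and the median covered share was 34.1% and 17.5%. Less coverage was found at 35 of the 41, with a median difference of -5.82 percentage points over all members. Falls also outnumbered rises among all genes. Of those below the 20% border of H2AK119ub in WT P6, 1691 had less and 1081 more, and above it 7151 and 1134. For windows over 200 kb these were 243 and 180 below it, and 450 and 37 above it. Among the members they were 15 and 4 below it, and 20 and 1 above it. Of 6 called lower, 5 were Grm8 (153 to 41.6 kb), Gria1 (136 to 43.1 kb), Grin2a (150 to 69.0 kb), Gabrr1 (30.3 to 6.23 kb) and Gabrr3 (23.9 to 10.6 kb), and none was higher, where 8.80% of all genes were lower and 0.644% higher. Among genes with a window over 200 kb, 19.0% were lower and 2.57% higher. The windows of 2 members, among them Gabrp with 4.42 kb in PRC2ctrl, had no peak in PRC2cKO, a loss that 9.15% of all windows shared. The starts of 3, Gabrp and Gabrr1 among them, lost the mark, as did 7.65% of all starts. Grin2b (258 and 155 kb), Grik4 (311 and 228 kb) and Grm7 (143 and 91.2 kb) differed most without a call. Gria2 differed by little, at 57.6 kb in PRC2ctrl and 57.4 kb in PRC2cKO, as did Grm6, which was covered over 100% in both. The PRC2cKO list covers 428.6 Mb and the PRC2ctrl list 558.4 Mb, and at equal covered length 4 members were higher and 1 lower.

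H2AK119ub in the same oocytes was called lower at 6 members and higher at none. Among them were Grik1 (112 to 51.6 kb), Gabrb1 (32.5 to 10.2 kb), Gabrp (16.9 to 4.94 kb), Grm7 (17.5 to 6.75 kb) and Grik2 (10.4 to 4.01 kb), against 5.14% of all genes lower and 1.46% higher. Of the genes with a window over 200 kb, 10.5% were lower and 1.48% higher. Grid1 (292 and 190 kb), Grin2b (231 and 155 kb), Grin2a (218 and 151 kb), Grik4 (313 and 252 kb) and Grik3 (192 and 149 kb) differed most without a call. The starts of Gabrr2 and Gabrr1 gained H2AK119ub, as did 5.27% of all starts. At equal covered length the split was 1 higher and 4 lower.

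**Figure D4:**
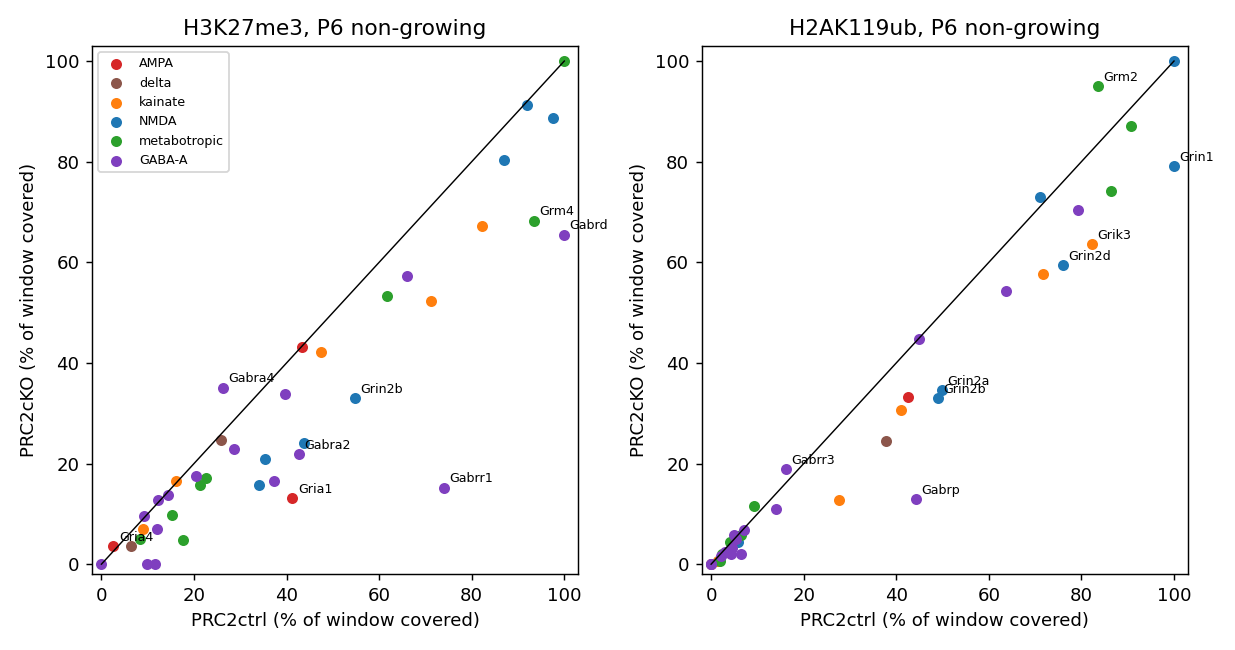
Share of the window covered in PRC2cKO against PRC2ctrl, in %, for H3K27me3 (left) and H2AK119ub (right) in non-growing oocytes of P6, with 1 point per receptor gene coloured by family and the line of equal shares. Most points lie below the line for H3K27me3, with Gabrr1 (73.9% against 15.2%) farthest, and Gabrp (44.2% against 12.9%) is the farthest for H2AK119ub.

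Neighbouring GABA-A genes were also read as blocks. The windows of Gabra4 and Gabrb1 overlap, so these share peaks. The cluster of Gabrg1, Gabra2, Gabra4 and Gabrb1 (chromosome 5, 70746047 to 72154572, 1409 kb) was covered by H3K27me3 over 18.4, 23.4, 23.2 and 9.03% in WT from E18.5 to P7. It was covered over 19.7% in PRC1ctrl and 21.3% in PRC1cKO at P6, over 6.18 and 15.2% at P7, and over 28.2% in PRC2ctrl and 26.2% in PRC2cKO. H2AK119ub covered 1.51 to 4.31% of it in the 6 lists. The Gabrr2 and Gabrr1 pair (chromosome 4, 33052712 to 33168588) went the other way, with 28.8, 29.0, 46.9 and 79.9% in WT, and H2AK119ub over 57.3, 63.5, 60.9 and 37.6%. In PRC2cKO it had 29.3% against 55.2% in PRC2ctrl.

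Genes that work with these receptors were read from a list of 61 that make, transport, anchor or modify their signals. H3K27me3 touched 54 to 57 of them in the 10 lists. From P6 to P7 in WT, 6 were called higher and 5 lower, where 10.7% and 4.71% of all genes were. The 3 largest differences downward were at Dlg2, a postsynaptic scaffold (354 to 81.6 kb), Grip1, which binds AMPA subunits (39.2 kb to none), and Shank2, another scaffold (77.1 to 53.0 kb). Upward they were at Shisa9, an auxiliary AMPA subunit (59.3 to 168 kb), Slc1a2, the glial glutamate transporter (51.6 to 110 kb), and Cacng2, stargazin (73.4 to 127 kb). In PRC1cKO at P7, 4 were higher and 12 lower than in PRC1ctrl, where 4.42% and 8.81% of all genes were. Downward the largest differences were at Dlgap2 (174 to 30.8 kb), Shisa9 (126 to 11.0 kb) and Dlgap1 (164 to 51.0 kb), and the Dlgap proteins are known to bind scaffolds of the Dlg family. Dlg2 (72.7 to 159 kb), Glul, glutamine synthetase (3.65 to 19.8 kb), and Shank2 (25.1 to 37.2 kb) differed most the other way. In PRC2cKO, 14 were lower in H3K27me3 and 0 higher, where 8.80% and 0.644% of all genes were. The largest differences in kb were at Dlg2 (494 and 299 kb, under 2-fold), Dlgap2 (255 and 79.6 kb) and Dlgap1 (367 and 266 kb, under 2-fold), and no partner was called in H2AK119ub, where 5.14% of all genes were lower and 1.46% higher. H2AK119ub was lower at 26 of the 61 and higher at 0 from P6 to P7 in WT, near the 41.9% lower among all genes.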

How the data were processed

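The authors deposited 1 peak list per group of 2 samples, without a header, and how the 2 were combined is not stated. Judged from the values, the deposited signal is summed over each peak in column 4, and the deposited score in column 5 is the highest signal in the peak. These are the authors' own values, used only within a list. The submitters' processing notes name SAMtools, deepTools, Bowtie2, Picard 3.0.0 and Trim Galore 0.6.10 and the builds GRCm38, mm10 and dm6. The labels' protocols give a spike of Drosophila S2 cells (for example 2000 to 1000 oocytes) and reads of 150 bp. For the peak caller, its threshold and any scaling by S2 reads, the answer is not given in the sources used here. Read depth is unknown.

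Covered length, calls and backgrounds over 20661 autosomal protein-coding genes were computed with Python 3.11.15, numpy 2.4.6 and pandas 2.3.3 after a check on simulated peaks. Alternatives included trimming both lists of a comparison to equal numbers of peaks or equal covered length, keeping the peaks with the highest maximum. No column of per-sample values was left out. Members, gene lists and rules were chosen with earlier results of these data known. Named in each comparison were members whose window or start lost or gained the mark, called members, the 6 largest changes in length, and the 3 partner genes with the largest change each way. For 5 members, counted among the 41, single results are not reported here. The 2 CG-richest and CG-poorest promoters were to be printed. Those inside an annotated gene were passed over, and a tie made 3 CG-poor ones.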

Additional observations from a re-analysis of the deposited data

How the results depend on the processing

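No paired analysis was possible because each group has 1 peak list that carries no replicate, and for the same reason no replicate could be left out. Of 82 called member changes, 902 checks under other settings gave 669 of the same direction and call, 231 below the call and 2 reversed. A looser rule of 1.5-fold and 2 kb, a least coverage of 1000 bp and the addition of Grid2ip, not a member, could not undo a call. Each of these gave 82 of the same, so these agreements were fixed in advance. Counting a member only with at least 10% of the window covered, the median number marked by H2AK119ub per list went from 38.5 to 22.5, and members with both marks numbered 22, 24, 25 and 16 in the WT lists from E18.5 to P7 and 21 in each of PRC2ctrl and PRC2cKO. With that rule 5 members changed from E18.5 to P1 and 7 from P1 to P6 in WT H3K27me3, 9 in PRC1cKO at P6 (net 3 higher, from -2), 10 in PRC1cKO from P6 to P7 (net -2, from 1) and 3 in PRC2cKO H2AK119ub. For gains and losses within 1 kb of the start, the counts were 1, 2, 1, 1 and 4 (WT H3K27me3 E18.5 to P1 and P6 to P7, then the 3 steps of H2AK119ub), 6 in PRC1cKO at P7, 3 in PRC1cKO from P6 to P7, 3 in PRC2cKO H3K27me3 and 2 in its H2AK119ub (net 2, from -6). Fewer calls are possible there, since only a whole loss or gain counts. In the upper 50% of peaks by maximum signal, 1 member changed from E18.5 to P1 in H3K27me3 and 5 in H2AK119ub, 8 in PRC1cKO from P6 to P7 and 10 in PRC2cKO H3K27me3. By total signal the counts were 5 for H2AK119ub from E18.5 to P1, 14 in PRC1ctrl and 11 in PRC1cKO from P6 to P7 (net -3). A rule of 1.5-fold and 2 kb gave 5 and 19 changed members (WT H3K27me3 E18.5 to P1 and P6 to P7), 12 and 9 (first and second step of H2AK119ub), 8 in PRC1cKO at P6 (net 2), 21 at P7, 17 in PRC1ctrl and 16 in PRC1cKO from P6 to P7 (net -8) and 15 in PRC2cKO H3K27me3. A rule of 3-fold and 10 kb gave 1, 0 and 2 for the WT steps of H3K27me3, 0 and 0 for the first and second step of H2AK119ub, 0 and 4 in PRC1cKO at P6 and P7, 3 in PRC1ctrl and 1 in PRC1cKO from P6 to P7 (net -1), 3 in PRC2cKO H3K27me3 and 1 in its H2AK119ub. At equal covered length 6 members changed in H2AK119ub at the first step, the net was -1 at the second, and 6 changed from P6 to P7 (net 4), where Gabrp differed by 6.82 kb and Gria1 by 51.2 kb upward. The net for H3K27me3 in PRC2cKO was then 3. At equal numbers of peaks the net in PRC1cKO from P6 to P7 was -3. The cause of these shifts was not tested. A border of 10% or 30% of H2AK119ub, chosen after seeing the data, left 14 of 14 and 19 of 22 members below it with less H3K27me3 at P7 in WT. With no replicates and unknown depth, none of these differences can be set against experimental error.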
